A study of Homo sapiens with 30 samples.

Results

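The contacts of the CTCF site S2 were compared between K562 cells with a mutated S5 site and unedited (WT) K562 cells. The libraries were those whose titles name the S5 mutant or WT at the S2 viewpoint, 2 of each, so 4 of the 30 libraries of the series. K562 is a human chronic myelogenous leukaemia cell line, and S2, S4 and S5 are labels of CTCF sites near NOTCH1 on chromosome 9. The series has 3 viewpoints (the NOTCH1 promoter, S2 and S4) and 5 genotypes (WT, S2 mutant, S4 mutant, S5 mutant and a mutant of both S4 and S5). The other mutants at the S2 viewpoint served as references: the S2 and S4 mutants, which keep S5, and the S4-S5 mutant, in which both S4 and S5 are mutated. All lines share the K562 background and were grown and fixed in the same way. The labels give neither the position of S5, nor the kind of mutation, nor whether a line is 1 clone or a pool. They describe the 2 libraries of a condition as independent but name no separate cultures, so p-values measure only how these libraries vary, and that variation may be technical.

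CTCF binds DNA at many chromatin loop anchors and domain boundaries, where it can halt the cohesin ring that extrudes chromatin loops. Mutation of such a site can let loops extend past it, which is why contacts on each side of a CTCF site are compared. NOTCH1 encodes a transmembrane receptor whose cleaved intracellular domain acts in the nucleus as a transcriptional co-activator, and it is often mutated in T-cell leukaemia. In 4C-seq, fixed chromatin is cut with a first enzyme, ligated, cut with a second one and ligated again, and fragments joined to the chosen viewpoint are amplified. The read count at a fragment end then reflects how often that place was ligated to the viewpoint.

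The S2 viewpoint, taken as the centre of its most covered 5-kb window, lay at hg19 chromosome 9 position 139385872. The promoter viewpoint lay 57.4 kb and the S4 viewpoint 137.9 kb telomeric of it. In RefSeq's GRCh38.p14 annotation NOTCH1 is 51616 bp long and lies on the minus strand, so its transcribed part runs from the promoter towards the centromere, the side on which S2 lies. The next protein-coding genes are SEC16A and INPP5E on the centromeric side and EGFL7 and AGPAT2 on the telomeric side. Exons, introns and hg19 gene bounds were not assigned here, because no annotation of that build was used.

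The promoter is the gene element between S2 and S4 whose contacts with S2 are given below, so its sequence is shown. It is the RefSeq sequence of the 250 bases before the NOTCH1 start, GRCh38.p14 chr9:136546049-136546298, minus strand, 5′ to 3′.
NOTCH1 promoter: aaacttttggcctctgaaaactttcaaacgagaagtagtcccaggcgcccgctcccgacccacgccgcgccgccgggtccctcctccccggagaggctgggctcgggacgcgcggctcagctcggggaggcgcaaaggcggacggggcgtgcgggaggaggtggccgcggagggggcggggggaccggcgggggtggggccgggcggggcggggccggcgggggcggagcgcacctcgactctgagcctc
Capitals would mark GATC, the site cut by DpnII, the first enzyme. It occurred 0 times here and 0 times in the 300 bases that include the first 50 after the start. Of 35116 promoter windows of 300 bases, 41.7% hold at least 1 such site (GATC reads the same on both strands). The stretch holds 33 CpG dinucleotides. A contact with this stretch could thus be read only at the ends of a fragment that spans it, and the values for the promoter below are sums over the 29 fragment ends of a 10-kb window.

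The WT libraries held 1798253 and 2326487 chromosome 9 reads and the S5 mutant libraries 6756974 and 6354075. Reads within 5 kb of the viewpoint were masked, which removed 60.3% and 59.8% of them in WT and 72.0% and 71.6% in the S5 mutant. Of the reads outside the mask, 69.98% and 69.98% lay within 500 kb of S2 (near-cis) in WT, against 87.8% and 88.2% in the S5 mutant and 81.6 to 87.6% in the other 6 mutant libraries. Fragment ends with a near-cis read numbered 1853 and 1870 of 3240 in WT and 1374 and 1366 in the S5 mutant, and 57.2% and 56.6% against 32.1% and 33.0% of ends after thinning to an equal 499045 reads. The 50 most covered ends took 29.7% and 29.1% of WT near-cis reads and 43.8% and 43.4% of those in the S5 mutant. WT and mutant libraries thus differed in depth, near-cis share and concentration on few ends, and the part of these differences in the results below was not tested. Replicates were alike at single ends (r = 0.99 in WT and 0.99 in the S5 mutant over log2 reads at 3240 ends, which are not independent). Their differences exceeded counting error, by a chi-square per degree of freedom of 1.94 and 18.7.

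Over all ends, the S5 mutant's near-cis contacts of S2 lay closer to it and more on the telomeric side, where NOTCH1 lies, than those of WT. The share close to S2 was not higher on non-blind ends, as given below. The telomeric side held 73.6% and 73.6% of near-cis reads in WT and 78.9% and 79.4% in the S5 mutant. On the log2 scale the telomeric over centromeric ratio was 1.48 ± 0.000170 in WT and 1.92 ± 0.0318 in the S5 mutant (SD, n = 2). The groups did not overlap. As shares of all reads outside the mask, the centromeric side held 18.5% and 18.5% in WT and 18.5% and 18.2% in the S5 mutant, and the telomeric side 51.5% and 51.5% against 69.3% and 70.04%. The S4-S5 mutant, the other line with a mutated S5, had 79.8% and 80.5% on the telomeric side, while the S2 mutant had 69.0% and 69.1% and the S4 mutant 72.0% and 72.4%.

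Within 50 kb of S2 lay 34.1% and 34.1% of WT near-cis reads and 41.1% and 41.3% of those in the S5 mutant. The other mutants were higher still, at 43.7 to 51.9%. On non-blind ends, as the files label fragments, the difference turned from 7.09 to -0.228 percentage points. Reads fell with distance at a slope (log10 reads per log10 distance) of -0.695 and -0.693 in WT and -0.895 and -0.895 in the S5 mutant. These values stood apart from WT in every mutant, and an exact two-sided permutation test over 4 libraries cannot go below p = 0.333, the value obtained for the telomeric share, the side ratio, the share within 50 kb and the slope.

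**Figure D1:**
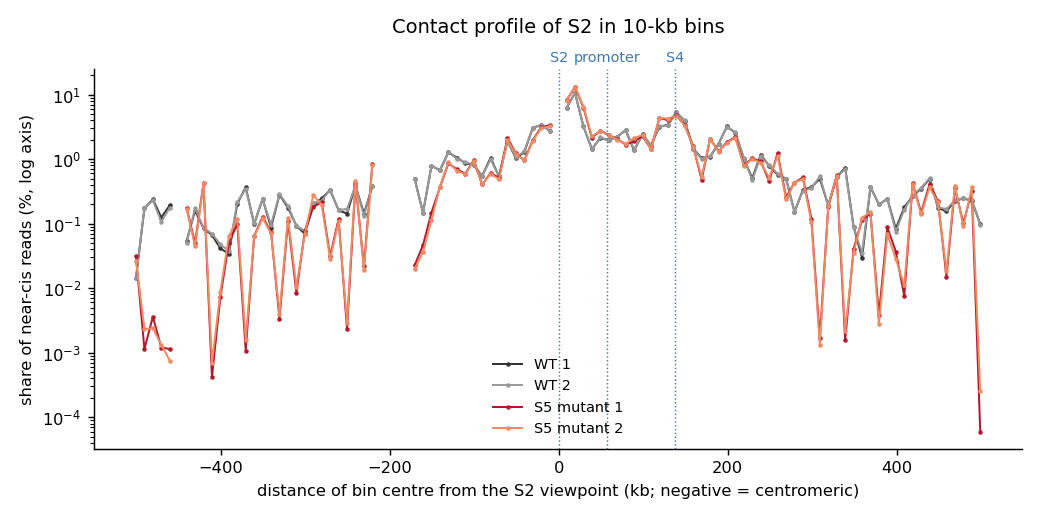
Share of near-cis reads (%, log axis) in each of 95 10-kb bins against the distance of the bin from S2, with 1 line for each of the 4 libraries and dotted lines at S2, the promoter and S4. The 2 libraries of a genotype follow each other, the S5 mutant lies above WT between S2 and the promoter, and several of its bins over 250 kb away fall below 0.01%.

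The near-cis window was divided into 12 regions by the viewpoints and by distance. By edgeR's quasi-likelihood F test with Benjamini-Hochberg adjustment, 11 of the 12 changed (91.7%), 5 of them higher in the S5 mutant (41.7%) and 6 lower (50%). All folds below are on shares of near-cis reads, so a rise in 1 region lowers the share of others.

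The largest rise was in the interval from 20 kb telomeric of S2 up to the promoter (139405873 to 139438268), on the side of the promoter into which NOTCH1 is transcribed. It took 10.96% and 10.96% of near-cis reads in WT and 18.2% and 18.4% in the S5 mutant. Both S5 mutant libraries were above both WT libraries, by a log2 fold of 0.74 (SE 0.02, adjusted p = 1.06e-40). The same interval held 14.5% ± 0.114 in the S4-S5 mutant, 13.6% ± 0.000406 in the S4 mutant and 15.1% ± 0.252 in the S2 mutant (SD, n = 2), so the S5 mutant was the highest of the 5 genotypes. Its log2 fold was 0.35 (SE 0.02, adjusted p = 8.19e-28) against the mean of the S2 and S4 mutants and 0.33 (SE 0.02, adjusted p = 8.84e-23) against the S4-S5 mutant. On non-blind ends alone the fold against WT was 0.31. Counting each end as covered or not gave 0.22, which did not pass the test.

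The regions on both sides of this interval rose less. The flank of S2 from 5 to 20 kb on the telomeric side took 12.6% and 12.6% in WT and 14.1% and 14.4% in the S5 mutant, a log2 fold of 0.17 (SE 0.02, adjusted p = 3.87e-12) that turned to -0.13 on non-blind ends. The same distances on the centromeric side took 3.62% and 3.57% in WT and 4.18% and 4.01% in the S5 mutant, a log2 fold of 0.19 (SE 0.03, adjusted p = 6.61e-08). The S5 mutant was above WT in both flanks but below the mean of the S2 and S4 mutants, by log2 folds of -0.45 and -0.56.

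The 10 kb around the promoter took 1.86% and 1.85% in WT and 2.25% and 2.23% in the S5 mutant (log2 0.27, SE 0.03, adjusted p = 6.93e-13). The groups did not overlap, but the fold was 0.02 and did not pass with capped ends, and against the mean of the S2 and S4 mutants it was -0.07 (adjusted p = 0.00555). The stretch between the promoter and S4 took 16.9% and 16.9% in WT and 17.7% and 18.2% in the S5 mutant, a log2 fold of 0.09 (SE 0.02, adjusted p = 7.76e-05) that was 0.01 with TMM factors and no longer passed.

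S4 and what lies beyond it took a smaller share of the near-cis reads of the S5 mutant. The 10 kb around S4 took 5.15% and 5.11% in WT and 4.68% and 4.68% in the S5 mutant, a log2 fold of -0.13 (SE 0.03, adjusted p = 6.13e-05) that turned to 0.20 when scaled to all of chromosome 9. The region up to 100 kb telomeric of S4 took 17.1% and 17.1% in WT and 14.8% and 14.6% in the S5 mutant, a log2 fold of -0.22 that turned to 0.11 with that scaling and to 0.54 against the mean of the S2 and S4 mutants. The rest of the telomeric side took 8.99% and 8.998% in WT and 7.12% and 6.95% in the S5 mutant (log2 -0.35), which was -0.02 and no longer passed when scaled to chromosome 9, and 0.75 against the mean of the S2 and S4 mutants. Telomeric of S4 the S5 mutant thus lay between WT and those mutants.

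On the centromeric side, the regions over 100 kb from S2 took smaller shares of near-cis reads than in WT. The region 250 to 500 kb away took 3.80% and 3.81% of near-cis reads in WT and 1.86% and 1.94% in the S5 mutant, a log2 fold of -0.998 (SE 0.03, adjusted p = 1.46e-39). It was the lowest of the 5 genotypes, with log2 folds of -0.97 (adjusted p = 8.67e-42) against the mean of the S2 and S4 mutants and -0.48 (adjusted p = 4.64e-23) against the S4-S5 mutant. The region 100 to 250 kb away took 6.83% and 6.86% in WT and 4.49% and 4.42% in the S5 mutant, a log2 fold of -0.62 (SE 0.03, adjusted p = 1.96e-28). Here the S4-S5 mutant was lower still, at 3.28% ± 0.0745 (SD, n = 2). In covered ends these folds were -0.20 and -0.02 and neither passed, and scaled to chromosome 9 they were -0.67 and -0.29.

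The 2 regions nearer to S2 on that side differed from each other. From 50 to 100 kb the shares were 4.73% and 4.65% in WT and 4.93% and 4.70% in the S5 mutant, and the difference did not pass the test (log2 0.04, SE 0.03, adjusted p = 0.211). From 20 to 50 kb they were 7.45% and 7.53% in WT and 5.64% and 5.53% in the S5 mutant, a log2 fold of -0.42 (SE 0.03, adjusted p = 5.30e-22). It was -0.09 when scaled to chromosome 9 and -0.15 with capped ends, and turned to 0.27 in covered ends. The fold was -0.71 against the mean of the S2 and S4 mutants and -0.04 against the S4-S5 mutant (adjusted p = 0.144), so both lines with a mutated S5 had low shares there, 5.58% ± 0.0791 and 5.75% ± 0.249, against 8.54% ± 0.0878 in the S4 mutant and 9.80% ± 0.0780 in the S2 mutant (SD, n = 2).

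**Figure D2:**
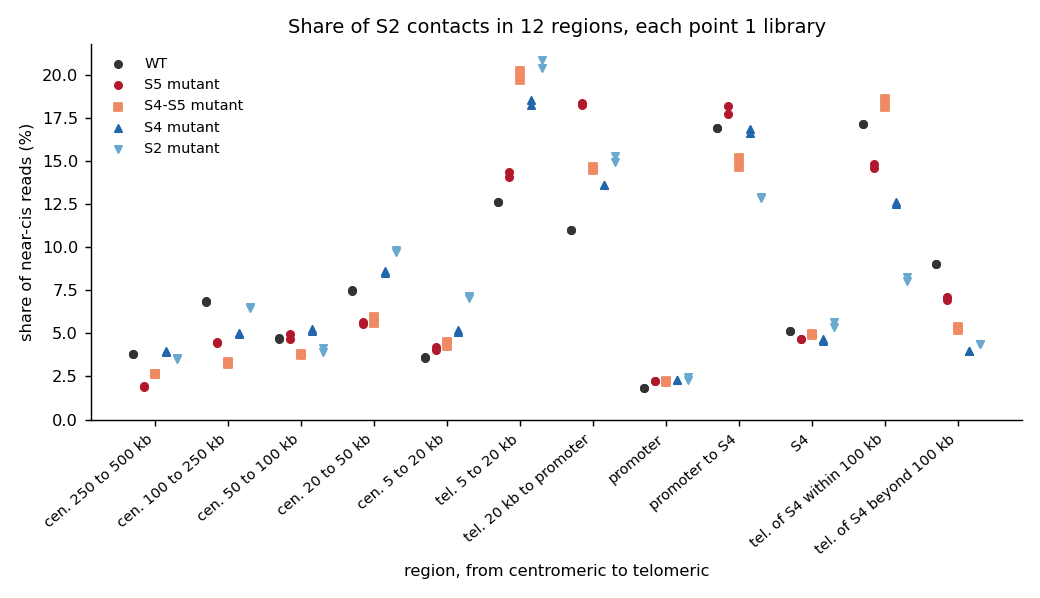
Share of near-cis reads (%) in 12 regions ordered from centromeric (cen.) to telomeric (tel.), each point 1 library of the S2 viewpoint. From 20 kb telomeric of S2 to the promoter the S5 mutant is the highest genotype at 18.2% and 18.4%, and from 250 to 500 kb centromeric it is the lowest.

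In 10-kb bins the same contrast changed 88 of 95 bins (92.6%), 30 of them higher in the S5 mutant (31.6%) and 58 lower (61.1%), and 38 by at least 2-fold. With so many bins called, a call at any bin says little about that bin. The log2 fold over all 95 bins had a median of -0.38, which rose by 0.33, 0.36 and 0.40 when reads were scaled to chromosome 9, with TMM factors or with DESeq2's size factors. The higher and lower bins then numbered 40 and 46, 41 and 45, and 42 and 44. Small falls below are therefore given with their values under these scalings. On the centromeric side 10 of 45 bins were higher and 32 lower, and on the telomeric side 20 of 50 were higher and 26 lower.

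The 6 adjacent bins from the telomeric edge of the mask to the promoter (139390001 to 139450000) were all higher in the S5 mutant, the longest run of adjacent higher bins in the window. The bin from 139410001, centred 29.1 kb from S2, took 3.21% and 3.24% of near-cis reads in WT and 6.29% and 6.45% in the S5 mutant, a log2 fold of 0.98 (SE 0.05, adjusted p = 3.54e-09). It was the most raised of the 6, and its fold was 0.82 against the mean of the S2 and S4 mutants and 0.92 against the S4-S5 mutant. The next bins towards the promoter, from 139420001 and 139430001, rose from 1.42% and 1.42% to 2.12% and 2.24% (log2 0.62) and from 2.13% and 2.17% to 2.76% and 2.72% (log2 0.35). Both were also above the mean of the S2 and S4 mutants, by 0.38 and 0.48. The bins nearest to S2 gave another picture. The bin from 139390001, which touches the mask, rose from 6.20% and 6.22% to 8.17% and 8.01% (log2 0.38), but lay below the mean of the S2 and S4 mutants (-0.29) and turned to -0.07 when the most covered ends were capped. The bin from 139400001 rose from 10.6% and 10.5% to 12.95% and 13.3% (log2 0.31) and was also below those mutants (-0.33). On the centromeric side of the mask, the bin from 139380001 held 0 fragment ends outside it.

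The bin that holds the promoter viewpoint, from 139440001, took 1.95% and 1.95% in WT and 2.35% and 2.33% in the S5 mutant (log2 0.26, SE 0.03, adjusted p = 2.73e-05). Both S5 mutant libraries were above both WT libraries. Against the mean of the S2 and S4 mutants the fold was -0.02 (adjusted p = 0.535) and did not pass. With capped ends the fold against WT was 0.03 and did not pass, and in covered ends it was -0.14.

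The bin that holds the S4 viewpoint, from 139520001, had the highest WT share of all bins over 50 kb from S2. It took 5.32% and 5.29% in WT and 4.78% and 4.70% in the S5 mutant, a log2 fold of -0.16 (SE 0.03, adjusted p = 0.000190) that turned to 0.17, 0.20 and 0.24 under the other 3 scalings. The 2 bins on its centromeric flank rose. The bin from 139500001 went from 3.18% and 3.22% to 4.36% and 4.36% (log2 0.45, adjusted p = 2.82e-08), and that from 139510001 from 3.39% and 3.33% to 4.00% and 4.24% (log2 0.29, adjusted p = 6.00e-05, -0.39 with capped ends). Both stayed positive under the other 3 scalings. Against the mean of the S2 and S4 mutants the folds were 0.13 and 0.06, and the second did not pass (adjusted p = 0.149). In the first bin the S2 mutant was higher, with a mean of 4.59% against 4.36% in the S5 mutant. In the second the S4 mutant was higher, with 4.27% against 4.12%. The bin on the telomeric flank of the S4 bin, from 139530001, took 3.92% and 3.97% in WT and 3.37% and 3.29% in the S5 mutant (log2 -0.24, or 0.09 to 0.15 under the other 3 scalings). The S4 bin thus had a higher share than these flanking bins in both genotypes, over the centromeric ones by less in the S5 mutant. Its most covered end gave 17.3% of its WT reads and 39.0% of its S5 mutant reads. Whether the bin stands out in the S5 mutant without that end was not tested.

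The other 4 of the 8 strongest distant bins of WT gave 3 falls and 1 bin that did not pass. The bin from 139460001, between the promoter and S4, took 2.79% and 2.87% in WT and 1.68% and 1.73% in the S5 mutant (log2 -0.73, adjusted p = 3.87e-07). The bin from 139580001, centred 199 kb telomeric of S2 and beyond S4, took 3.20% and 3.19% in WT and 1.84% and 1.80% in the S5 mutant (log2 -0.81, adjusted p = 2.72e-09). Both falls held their sign under the other 3 scalings, while against the mean of the S2 and S4 mutants they turned to 0.32 and 0.60. In the bin from 139460001 the S5 mutant's mean of 1.70% lay below the S4 mutant's 1.81% and above the S2 mutant's 1.02%. In the bin from 139580001 its mean of 1.82% lay above both, 1.63% and 0.886%. The bin from 139590001 had a log2 fold of -0.25 that changed sign under the other 3 scalings (0.08 to 0.15), and the bin from 139480001 did not pass (log2 -0.06, adjusted p = 0.327).

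**Figure D3:**
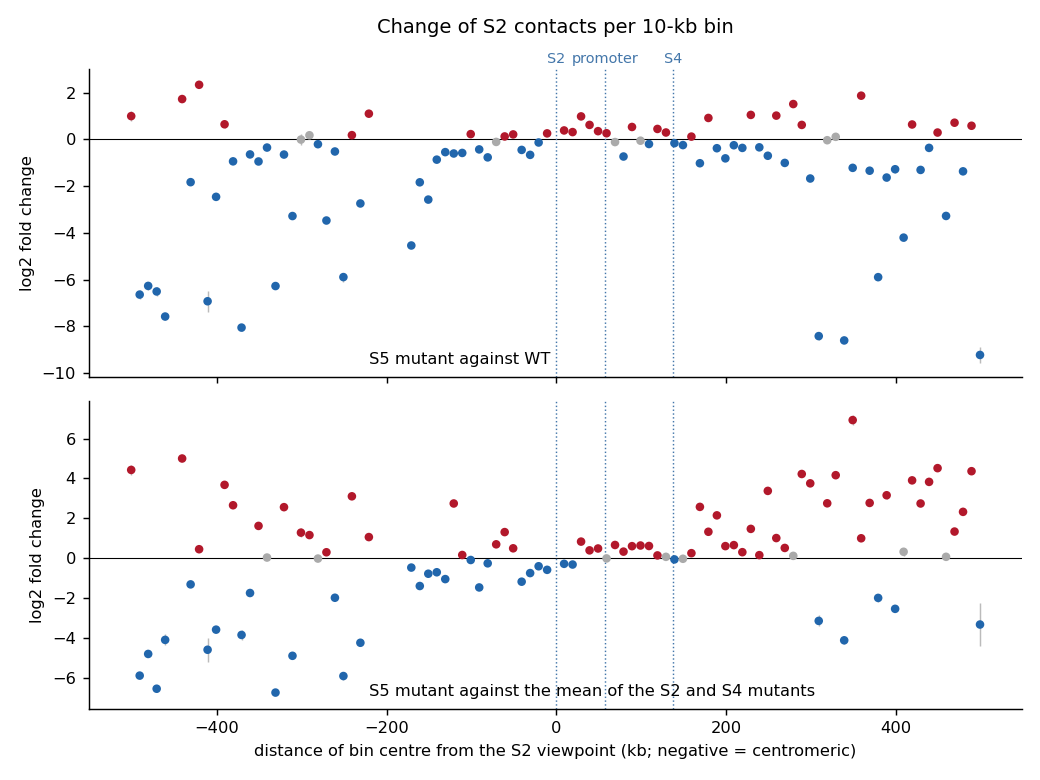
Log2 fold change of the S5 mutant in 95 10-kb bins with its SE against distance from S2, above against WT and below against the mean of the S2 and S4 mutants. Red bins were higher and blue lower at an adjusted p under 0.05, grey bins did not pass, and dotted lines mark S2, the promoter and S4. The largest falls lie over 250 kb from S2, and against the other mutants 36 of 50 telomeric bins were higher.

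The 8 bins that fell most lay 309 kb or more from S2, and nearly emptied in the S5 mutant. The bin from 139720001 had 3694 and 4591 reads in WT, 0.740% and 0.702% of near-cis reads, and 26 and 34 in the deeper S5 mutant libraries, 0.00156% and 0.00214%. Its log2 fold was -8.60 (SE 0.12, adjusted p = 4.56e-13). The bins from 139690001 (-8.42) and 139010001 (-8.05) went from 0.496% and 0.539% to 0.00168% and 0.00132%, and from 0.364% and 0.343% to 0.00108% and 0.00157%. The other 5 were an edge bin that holds only 17 ends, from 139880001 (-9.22, with 1 and 4 reads in the S5 mutant), and those from 138920001 (-7.58), 138970001 (-6.93), 138890001 (-6.64) and 138910001 (-6.51).

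The other mutants differed in these bins. The bin from 139720001 took 0.122% in the S4-S5 mutant, 0.315% in the S4 mutant and 0.00336% in the S2 mutant, as means of 2 libraries. The bin from 138890001 took 0.172% and 0.174% in WT and 0.00114% and 0.00233% in the S5 mutant, but 0.471% in the S2 mutant. WT reads in the bin from 139720001 came from 16 and 17 ends, and the S5 mutant's from 9 and 10. Against the mean of the S2 and S4 mutants the 8 bins had log2 folds of -3.16 to -6.56. The S2 mutant alone was also nearly empty in the bins from 139690001 (0.00223%), 139010001 (0.00257%), 138920001 (0.00176%), 138970001 (0.00341%) and 139880001 (0.000224%). In the bin from 138910001 it took 0.0655%. The emptying was thus particular to the S5 mutant in only a part of these bins.

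The 8 bins that rose most lay 221 kb or more from S2. The bin from 138960001 took 0.0846% and 0.0861% in WT and 0.432% and 0.429% in the S5 mutant (log2 2.34, SE 0.07, adjusted p = 4.45e-11), and that from 139740001 0.0295% and 0.0350% against 0.114% and 0.123% (log2 1.87). The bins from 138940001 (1.73) and 139660001 (1.51) followed. The bins from 139160001 (1.099), 139610001 (1.05) and 139640001 (1.02) had higher levels, 0.842% and 0.796%, 1.02% and 0.998%, and 1.23% and 1.12% in the S5 mutant. The last was an edge bin of 5 ends from 138880001 (0.995), which had -1.59 when the window was widened to 1 Mb and the bin was whole. A single end gave 66.8 to 99.6% of the S5 mutant's reads in 4 of these bins, those from 138880001, 138940001, 139610001 and 139740001. Some of these rises were not particular to the S5 mutant. In the bin from 138960001 the S2 mutant had a mean of 0.436%, against 0.431% in the S5 mutant. It had 0.890% against 0.119% in the bin from 139740001, and 0.834% against 0.432% in that from 139660001. In the other bins of the 8 the S5 mutant had the highest mean of all genotypes.

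Reads were not spread evenly over the ends of a region, so the ends behind the rise between S2 and the promoter were looked at singly. Of the 105 ends of the interval from 20 kb to the promoter, 92 had a read in at least 1 of the 4 libraries. At 36 of them both S5 mutant libraries had a higher share than both WT libraries, and at 47 both had a lower one. Over the whole near-cis window the numbers were 418 higher and 1315 lower of 2011 such ends. In the flank from 5 to 20 kb telomeric of S2 they were 18 and 24 of 46. More ends thus fell than rose in the interval, in that flank and over the window. The ends that rose were a larger part of the covered ends in the interval and the flank than over the whole window.

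Gains in the interval came to 10.9 percentage points of near-cis reads and losses to -3.59. The 5 ends with the largest gains, chosen after their values were seen, gave 5.53 of these points. Without them the interval took 10.2% in WT and 12.02% in the S5 mutant as means of 2 libraries. In each of the 6 raised bins, leaving out the 5 ends of largest gain in that bin put the S5 mutant below WT. Taking out ends chosen for their gain lowers the S5 mutant against WT in any bin, so this is not particular to these 6. The bin from 139480001, which was not called, then took 1.46% in WT and 0.377% in the S5 mutant, and that from 139610001 0.439% and 0.00598%. The bin from 139410001 then took 2.21% in WT and 1.86% in the S5 mutant, and that from 139430001 1.31% and 0.380%. The largest gain was at the end at 139409835, 24.0 kb from S2, with 0.165% and 0.152% in WT and 1.78% and 1.76% in the S5 mutant. The next was at 139419050, 33.2 kb from S2, with 0.155% and 0.164% in WT and 1.53% and 1.46% in the S5 mutant. At each of these ends the S5 mutant's 2 libraries were close and the groups far apart.

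**Figure D4:**
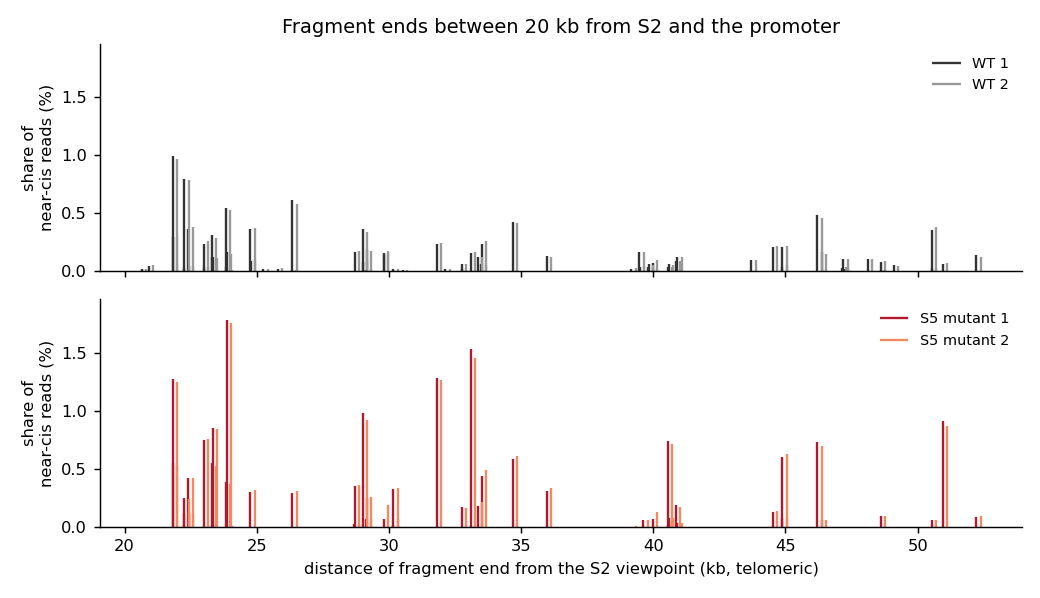
Share of near-cis reads (%) at each of 105 fragment ends between 20 kb telomeric of S2 and the promoter, by distance from S2, with WT above and the S5 mutant below and 2 lines for the 2 libraries of each. The S5 mutant has tall ends at 24.0 kb and 33.2 kb that are low in WT, and WT has reads at more ends.

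The most covered ends differed between the genotypes. In WT the first was at 139403178, 17.3 kb from S2, with 1.90% and 1.93% of near-cis reads, and it took 0.202% and 0.202% in the S5 mutant, where it was not among the first 5. The second WT end, 139401852, went from 1.55% and 1.51% to 0.391% and 0.403%. In the S5 mutant the first was at 139395841, with 1.02% and 1.04% in WT and 2.17% and 2.06% in the S5 mutant. Its second, at 139400591, went from 0.299% and 0.304% to 1.82% and 2.04%. Neighbouring ends within 10 kb thus moved in opposite directions.

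The end at 139525708, 139.8 kb from S2 and in the S4 bin, ranked 5 in WT and 3 in the S5 mutant. It took 0.945% and 0.892% in WT and 1.89% and 1.81% in the S5 mutant. The rise at this end stood beside the lower share of the whole S4 bin, in which the most covered end gave 17.3% of WT reads and 39.0% of the S5 mutant's.

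Ends with a near-cis read in at least 1 WT library numbered 1952, and those in at least 1 S5 mutant library 1553. Of these 1494 were shared, which is 76.5% of the WT ends and 96.2% of the S5 mutant's. The 458 ends found only in WT held 4.47% and 4.72% of WT reads, and the 59 found only in the S5 mutant held 0.0762% and 0.0801% of its reads. The S5 mutant profile therefore used few ends that WT lacked.

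Against the mean of the S2 and S4 mutants, which share with the S5 mutant a high near-cis share and few covered ends, 87 of 95 bins differed (91.6%), 53 of them higher (55.8%) and 34 lower. These were 36 higher and 8 lower of 50 telomeric bins, with a median log2 fold of 0.62, and 17 higher and 26 lower of 45 centromeric bins, with a median of -0.48. The telomeric lean of the S5 mutant was thus present with this reference too, although in the S2 mutant the viewpoint's own site is mutated. Against the S4 mutant alone it showed in the telomeric share of near-cis reads, 78.9% and 79.4% against 72.0% and 72.4%. The rise of the bin from 139410001 also kept its sign with it, as given above. Of the 25 bins over 250 kb away on the centromeric side, 19 were lower than in WT, while 10 were higher than in those mutants. The bin from 139000001 went from a log2 fold of -0.94 against WT to 2.65 against them. Its mean share was 0.110% in the S5 mutant, 0.0973% in the S4 mutant and 0.00311% in the S2 mutant. A fold against the mean of these 2 mutants can thus rest mostly on the S2 mutant.

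Against the S4-S5 mutant 85 of 95 bins differed (89.5%), 41 higher (43.2%) and 44 lower. The telomeric bins had a median of 0.13 and the centromeric ones of -0.41. The share of bins called was close to those against WT (92.6%) and against the mean of the S2 and S4 mutants (91.6%). The count therefore says little about adding the S4 mutation. By region, the S4-S5 mutant had less from 20 kb to the promoter (the S5 mutant was higher by 0.33 on the log2 scale), more from 5 to 20 kb (S5 mutant minus S4-S5 mutant -0.49 on the log2 scale) and more up to 100 kb telomeric of S4 (-0.32). The promoter region did not pass between them (log2 0.04, adjusted p = 0.189). The 10-kb bin from 139440001, which holds the promoter viewpoint, did pass (log2 0.14, SE 0.03, adjusted p = 0.00327).

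Contacts between the same sites were also read from the other end, in separate libraries at the promoter and S4 viewpoints. From the promoter, the bin that holds S2 took 3.26% and 3.22% of near-cis reads in WT and 5.35% and 5.40% in the S5 mutant (log2 0.73, SE 0.02, adjusted p = 2.54e-90). From S4 it took 5.98% and 5.79% in WT and 10.2% and 10.2% in the S5 mutant (log2 0.79, SE 0.03, adjusted p = 3.17e-15). Read from S2, the promoter bin had a smaller rise, 0.26. The S4 bin read from S2 went the other way, a fall of -0.16 whose sign turned under the other scalings. Against the mean of the S2 and S4 mutants the folds of the S2 bin were 0.58 from the promoter (adjusted p = 9.85e-79) and 0.66 from S4 (adjusted p = 1.42e-15). Against the S4-S5 mutant they were 0.51 from the promoter (adjusted p = 2.52e-67) and 0.01 from S4, which did not pass (adjusted p = 0.696). From S4 the S2 bin took 8.87% and 9.05% in the S4 mutant, also above WT, and 4.57% and 4.69% in the S2 mutant. The fold of 0.66 thus rested mostly on the S2 mutant. From the promoter it took 3.08% and 3.03% in the S4 mutant and 4.14% and 4.27% in the S2 mutant. In the S2 mutant the bin itself carries the mutation, and in the S4 mutant the S4 viewpoint does. The 4 estimates come from libraries scaled to different viewpoints and their differences were not tested.

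The interval between S2 and the promoter was seen from the promoter as well. From there, the bin from 139410001 took 4.05% and 4.03% in WT and 4.34% and 4.53% in the S5 mutant (log2 0.13, adjusted p = 2.25e-10), a smaller rise than from S2. The bin from 139420001 did not pass (log2 0.05, adjusted p = 0.0695), and the bin from 139430001, nearest to the promoter, took 5.28% and 5.32% in WT and 7.39% and 7.27% in the S5 mutant (log2 0.47).

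Beyond 500 kb most of chromosome 9 took a smaller share of the S5 mutant's reads. In 1-Mb bins scaled to the far-cis total, 91 of 96 bins changed (94.8%), 21 higher (21.9%) and 70 lower (72.9%). Scaled to all of chromosome 9 they were 5 higher and 86 lower, and with DESeq2 35 higher and 57 lower. Reads 20 to 70 Mb centromeric of S2 made up 6.13% and 6.06% of reads outside the mask in WT and 1.70% and 1.64% in the S5 mutant. Those over 70 Mb away made up 2.18% and 2.21% in WT and 0.210% and 0.199% in the S5 mutant. The groups were far apart at both distances, and the other 6 mutant libraries were also low, at 0.244 to 1.12% and 0.0920 to 0.781%. From 20 to 70 Mb the S5 mutant was the highest of the mutants.

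Nearer to the locus the direction depended on the scale. From 1 to 5 Mb centromeric the share of reads outside the mask was 5.28% and 5.22% in WT and 2.21% and 2.13% in the S5 mutant, the lowest of the 5 genotypes (3.17 to 4.88% in the other mutants). From 500 kb to 1 Mb it was 3.38% and 3.38% in WT and 1.52% and 1.48% in the S5 mutant on the centromeric side, again the lowest. As shares of far-cis reads both turned, with 17.6% and 17.4% in WT and 18.2% and 18.1% in the S5 mutant from 1 to 5 Mb, and 11.2% and 11.3% against 12.5% and 12.6% from 500 kb to 1 Mb, where WT was the lowest. On the telomeric side the share outside the mask was 2.84% and 2.92% in WT and 2.43% and 2.41% in the S5 mutant, within the range of the other mutants (1.94 to 4.16%). As a share of far-cis reads it was 9.47% and 9.72% against 20.0% and 20.4%. The other mutants had 15.7 to 22.9% on that scale, with the S2 mutant above the S5 mutant. These shares move with the whole far-cis part, which was smaller in the S5 mutant.

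**Figure D5:**
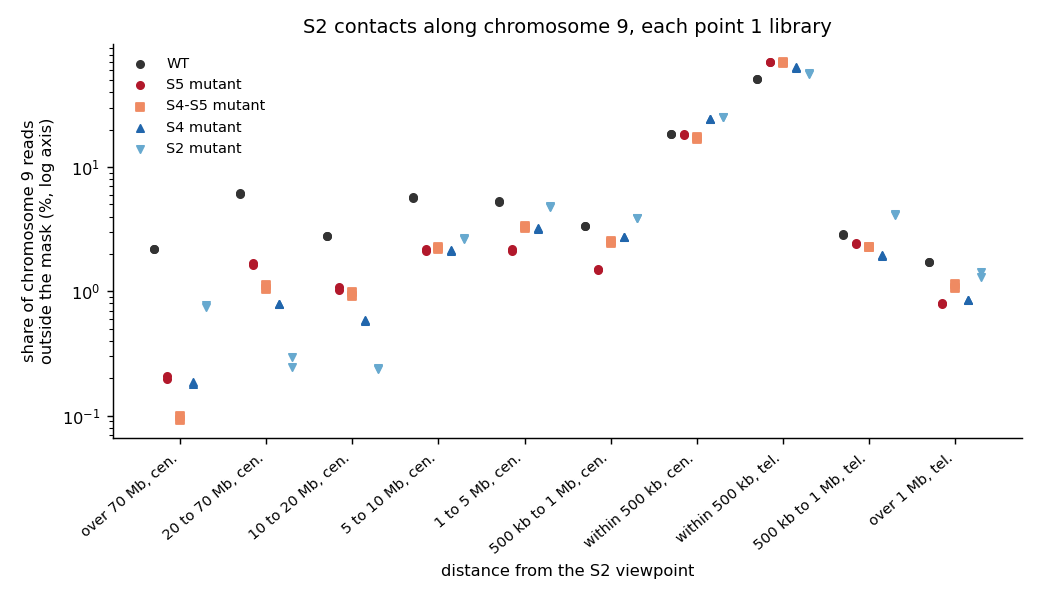
Share of chromosome 9 reads outside the mask (%, log axis) by distance from S2, each point 1 library. WT is the highest genotype beyond 5 Mb on the centromeric side, and on this scale, though not as a share of far-cis reads, the S5 mutant is the lowest from 500 kb to 5 Mb on that side.

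The far-cis bins that changed most rested on a handful of ends. The bin of largest fall, 76 to 77 Mb, had 279 and 415 reads on 4 ends in each WT library and 0 in both S5 mutant libraries, a share at least 207-fold lower with a floor of 3 reads over both. The bin from 35 to 36 Mb had 784 and 986 reads in WT and 1 and 1 in the S5 mutant, a ratio of 793 (95% exact counting interval 219 to 6556). The bins from 72, 2 and 1 Mb had 1 to 3 S5 mutant reads over both libraries and ratios of 739 (253 to 3587), 736 (132 to 29106) and 513 (175 to 2490). These intervals cover counting error only, and reads amplified from 1 ligation are not independent. The other mutants were also nearly empty in these bins, so the falls were not particular to the S5 mutant. From 76 to 77 Mb WT had a mean of 0.139% of far-cis reads. The S4-S5, S2 and S4 mutants had 0%, 0.000310% and 0.000327% there. Their highest mean in any of these bins was 0.0113%, in the S4 mutant from 72 Mb, against 0.502% in WT and 0.000687% in the S5 mutant.

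The far-cis bin that rose most, 120 to 121 Mb, took 0.0831% and 0.0763% of far-cis reads in WT and 0.972% and 0.879% in the S5 mutant (log2 3.54, SE 0.15). In it, 1 end gave 2238 of 2244 and 1867 of 1869 S5 mutant reads. The bins from 71 Mb (log2 2.24), 117 Mb (2.15), 94 Mb (1.67) and 96 Mb (1.65) had reads at 3 to 9 ends in each S5 mutant library and at 9 to 16 in each WT library. Against the S4-S5 mutant 61 of 96 far-cis bins differed (63.5%), 32 of them higher in the S5 mutant (33.3%). Against the mean of the S2 and S4 mutants 57 differed (59.4%), 31 of them higher (32.3%).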

How the data were processed

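The deposited files hold, for each library, a raw read count per restriction fragment end on chromosome 9, per the file headers. How the authors counted reads is not stated in the labels or headers. deepTools and the hg19 build appear in the submitters' processing notes, without their use. A first digestion with DpnII is stated in the labels' protocols. Library pairs are those the labels number 1 and 2.

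Each viewpoint was set at the centre of its most covered 5-kb window, and ends within 5 kb were masked. Counts were summed in 10-kb bins within 500 kb (near-cis), in 12 regions and in 1-Mb bins beyond, keeping bins with a mean of at least 10 reads, which all 95 near-cis bins passed. All 10 libraries of the S2 viewpoint were fitted with edgeR 4.0.16 in R 4.3.3 (quasi-likelihood F test, library size the near-cis or far-cis total, Benjamini-Hochberg threshold 0.05). The SE is the log2 fold divided by the root of F. The promoter and S4 viewpoints were fitted separately in the same way. DESeq2 1.42.0, TMM factors, scaling to all of chromosome 9, other bins, masks and windows, ends labelled non-blind in the files, covered ends, ends capped at the 95th percentile, a replicate block and leaving out each library were alternatives. Named were the 8 bins with the largest called rises and falls whose groups did not overlap, the 8 of highest WT share over 50 kb away, bins that hold a viewpoint or touch the mask, every region, 5 far-cis bins in each direction and the 5 most covered ends of each genotype. The other bins between S2 and the promoter, and the ends with the largest gains there, were chosen after their values were seen. Fits were tested on simulated counts. Tables and plots used Python 3.11.15 with pandas 2.3.3, numpy 2.4.6 and matplotlib 3.10.9.

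The comparison, its references and the regions were chosen with earlier results of these data known. The same-number libraries of 2 genotypes did not deviate together (r from -0.34 to 0.30), so the numbers were not taken as pairs.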

Additional observations from a re-analysis of the deposited data

Results flagged for a closer look

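The effect of the S5 mutation was also measured in the S4 mutant background, as the S4-S5 mutant against the S4 mutant, and the difference of the 2 effects was tested by an interaction term in the same edgeR fit. It passed an adjusted p of 0.05 in 10 of 12 regions. These 10 values rest on 2 libraries per genotype and share the spread of all 10. Each effect is a difference between lines, and the part of other differences between those lines in it was not tested.

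From 20 kb telomeric of S2 to the promoter the S5 effect was 0.74 on the log2 scale in WT and 0.10 in the S4 mutant, a difference of -0.64 (SE 0.03, adjusted p = 1.67e-29). At the promoter it was 0.27 and -0.09, a difference of -0.36, and between the promoter and S4 the difference was -0.25. Around S4 it was 0.22. Up to 100 kb telomeric of S4 the effect was -0.22 in WT and 0.55 in the S4 mutant, a difference of 0.77 (SE 0.03, adjusted p = 3.58e-33), and beyond that it was -0.35 and 0.41, a difference of 0.77 as well.

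On the centromeric side the differences were -0.41 from 5 to 20 kb, -0.15 from 20 to 50 kb, -0.50 from 50 to 100 kb and 0.42 from 250 to 500 kb. From 100 to 250 kb the effects were -0.62 and -0.61 (difference 0.01, adjusted p = 0.797), and from 5 to 20 kb on the telomeric side the difference was -0.06 (adjusted p = 0.0526). The effect in WT also carries the difference in depth and near-cis share between WT and the mutants, whose part was not tested.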

How the results depend on the processing

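Leaving out each library in turn changed the call of no named bin or region, but lowered most counts: near-cis bins numbered 27 to 29 higher, 56 to 58 lower and 35 to 39 changed at least 2-fold, far-cis bins 19 to 21, 69 to 70 and 70 to 71, regions 5 higher and 6 lower, and the log2 folds ran from 0.73 to 0.74 (20 kb to the promoter), -1.03 to -0.97 (250 to 500 kb centromeric) and -0.63 to -0.61 (100 to 250 kb). With a replicate block the near-cis counts were 30, 58 and 38, and no named bin or region changed its call. Higher, lower and at least 2-fold bins numbered 54, 110 and 96 in 5-kb bins, 12, 29 and 17 in 20-kb bins, 15, 27 and 7 in a 250-kb window and 47, 132 and 115 in a 1-Mb window, which hold other numbers of bins. Against the S2 and S4 mutants 53 were higher and 34 lower. Counting covered ends gave 0 calls with edgeR for near-cis bins (0 of 63 at unadjusted p under 0.05), regions (2 of 12) and far-cis bins (1 of 25), and folds of 0.22, -0.20 and -0.02 for the 3 regions named first; the cause was not tested. Scaled to chromosome 9, regions were 8 higher and 3 lower and far-cis bins 5 higher. DESeq2 gave 35 higher far-cis bins, 2-Mb bins gave 12 higher, 41 lower and 36 at least 2-fold, and the S2 and S4 reference 26 lower.

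The near-cis share difference, 18.0 points, was 19.6 (20-kb mask), 19.2 (250-kb window), 15.7 (1-Mb window) and 17.5 (non-blind ends). The side ratio difference, 0.447, was 0.537, 0.406, 0.546 and 0.640, and the share within 50 kb, 7.09 points, was 6.65, 6.18, 8.13 and -0.228.

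Signs turned as follows on the log2 scale, and the causes were not tested. Scaled to chromosome 9: region S4 0.20, telomeric of S4 within 100 kb 0.11, bins 139480001 0.27, 139520001 0.17, 139530001 0.09 and 139590001 0.08. With TMM factors: 50 to 100 kb centromeric -0.04 and those bins 0.30, 0.20, 0.12 and 0.11. With DESeq2: 0.34, 0.24, 0.15 and 0.15. On non-blind ends: 50 to 100 kb centromeric -0.16, 5 to 20 kb telomeric -0.13, S4 0.28, telomeric of S4 0.16, and bins 139520001 0.27, 139530001 0.63 and 139590001 0.10. In covered ends: 50 to 100 kb centromeric -0.11, 20 to 50 kb 0.27, S4 0.14, telomeric of S4 0.06, and bins 139440001 -0.14, 139460001 0.01, 139480001 0.02, 139510001 -0.01, 139520001 0.16, 139530001 0.13, 139590001 0.21 and 139610001 -0.30. With capped ends: 139390001 -0.07, 139480001 0.22 and 139510001 -0.39. In a 1-Mb window: 138880001 -1.59 and 139480001 0.00. Against the S2 and S4 mutants: 5 to 20 kb centromeric -0.56 and telomeric -0.45, promoter -0.07, telomeric of S4 0.54 and beyond 0.75, and bins 139390001 -0.29, 139440001 -0.02, 139460001 0.32, 139480001 0.63, 139580001 0.60 and 139590001 0.65.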
